A study of Arabidopsis thaliana with 21 samples.

Results

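The early transcript response of wild-type Arabidopsis root tips to auxin was described from 6 of the 21 libraries of the series, the 3 labelled with 10 nM indole-3-acetic acid (IAA) and the 3 labelled mock. All 6 came from Col-0, the standard wild-type accession, with no transgene. Plants were 5 days old and were treated for 20 min with IAA or with the ethanol solvent alone, and each library was made from 50 root tips of 1 to 2 mm, so that every value is an average over all cell types of the tip. Another Col-0 group of the same experiment, 3 libraries given 10 µM of the auxin antagonist PEO-IAA for 20 min, serves as a side-by-side reference. The other groups of the series entered the fit only to estimate the spread. They were lines in which the stabilized coreceptor AXR3-1 was induced by heat or by estradiol, and Col-0 given the same heat or estradiol. Per the labels, the libraries of each group are biological replicates.

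Auxin enters the nucleus and joins the F-box receptors of the TIR1/AFB family to Aux/IAA repressors, which are then destroyed, so that auxin response factors can switch on genes such as the Aux/IAA, GH3 and SAUR families. In root cells auxin also evokes responses that are too fast for transcription, among them calcium influx and changes in the pH of the cell wall. Calcium-dependent protein kinases, calmodulin-like proteins and mitogen-activated protein kinases (MAPKs) relay signals of this kind, and the same components serve touch, wounding and immune responses. The genes described here are those outside the classical auxin families: kinases, calcium and defence signalling genes, genes of the cell wall, and the genes lowered by IAA.

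The 250 bases upstream of the transcript start are shown for 7 raised genes, as examples with and without the motifs that are counted below. GH3.3 and IAA19 are classical auxin genes. MPK3 encodes a MAPK, SYP121 a secretory syntaxin, CPK28 a calcium-dependent kinase, CNGC19 a calcium channel and NAC062 a membrane-tethered transcription factor. Sequences were read 5′ to 3′ on the gene's strand from RefSeq's TAIR10.1 genome, at the start of the transcript model with the highest summed TPM. The deposited files give transcript names and no coordinates. The submitters name TAIR10, and 47875 of the 48071 transcripts found in the TAIR10.1 annotation have the same length in both. Capitals mark a match on either strand to TGTCTC or TGTCGG (bound by auxin response factors), TTGACC or TTGACT (the W box of WRKY factors), ACGCGT or CCGCGT (bound by the calmodulin-binding CAMTA factors), GCCGCC (bound by ethylene response factors) or CACGTG (the G box).
MPK3 (AT3G45640, chr3:16756321-16756570, plus strand): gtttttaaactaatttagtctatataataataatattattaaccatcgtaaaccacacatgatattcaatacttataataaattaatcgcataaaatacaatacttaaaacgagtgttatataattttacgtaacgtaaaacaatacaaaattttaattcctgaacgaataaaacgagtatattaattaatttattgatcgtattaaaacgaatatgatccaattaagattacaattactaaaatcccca
SYP121 (AT3G11820, chr3:3731252-3731501, minus strand): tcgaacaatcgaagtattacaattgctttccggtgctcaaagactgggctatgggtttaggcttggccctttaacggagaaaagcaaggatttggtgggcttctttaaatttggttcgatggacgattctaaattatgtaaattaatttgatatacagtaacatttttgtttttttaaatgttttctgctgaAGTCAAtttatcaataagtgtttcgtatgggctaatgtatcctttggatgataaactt
CPK28 (AT5G66210, chr5:26459625-26459874, minus strand): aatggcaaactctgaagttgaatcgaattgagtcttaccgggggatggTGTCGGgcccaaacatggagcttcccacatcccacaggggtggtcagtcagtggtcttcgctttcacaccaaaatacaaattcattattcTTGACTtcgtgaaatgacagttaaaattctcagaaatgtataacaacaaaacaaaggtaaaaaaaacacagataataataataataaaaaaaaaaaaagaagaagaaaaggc
CNGC19 (AT3G17690, chr3:6044752-6045001, plus strand): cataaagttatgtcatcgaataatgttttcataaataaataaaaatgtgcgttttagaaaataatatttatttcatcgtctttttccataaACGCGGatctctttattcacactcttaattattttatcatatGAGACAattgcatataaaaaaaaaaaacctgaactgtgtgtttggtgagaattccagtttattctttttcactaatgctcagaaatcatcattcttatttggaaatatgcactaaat
NAC062 (AT3G49530, chr3:18364960-18365209, minus strand): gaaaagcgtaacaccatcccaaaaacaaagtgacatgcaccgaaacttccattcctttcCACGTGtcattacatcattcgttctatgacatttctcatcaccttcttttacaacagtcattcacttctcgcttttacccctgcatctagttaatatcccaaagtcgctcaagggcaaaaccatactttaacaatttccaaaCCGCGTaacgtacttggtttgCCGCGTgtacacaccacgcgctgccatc
GH3.3 (AT2G23170, chr2:9866563-9866812, minus strand): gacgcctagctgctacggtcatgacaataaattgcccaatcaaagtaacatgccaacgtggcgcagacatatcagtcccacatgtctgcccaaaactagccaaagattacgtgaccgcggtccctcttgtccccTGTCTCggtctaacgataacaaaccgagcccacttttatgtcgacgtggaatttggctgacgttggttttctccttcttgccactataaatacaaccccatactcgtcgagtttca
IAA19 (AT3G15540, chr3:5263751-5264000, plus strand): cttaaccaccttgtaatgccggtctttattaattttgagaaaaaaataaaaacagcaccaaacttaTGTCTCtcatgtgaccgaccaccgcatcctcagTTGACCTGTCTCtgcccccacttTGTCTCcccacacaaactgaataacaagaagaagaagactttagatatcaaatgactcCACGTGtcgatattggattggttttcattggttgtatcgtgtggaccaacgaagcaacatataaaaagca

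TGTCTC occurred 3 times in the IAA19 window, beside 1 W box and 1 G box, and 1 time in that of GH3.3. SYP121 and CPK28 each had 1 W box, and CPK28 also had TGTCGG at 1 place. The CNGC19 window had 1 CAMTA match and 1 TGTCTC, and NAC062 had 2 CAMTA matches and a G box. The MPK3 window held none of these letters. Of the 250 bases shown, 30 of CPK28 and 11 of CNGC19 lie in an exon annotated for another transcript.

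Among genes tested, 19809 in all, edgeR's quasi-likelihood test called 29 genes higher in IAA than in mock (0.146%) and 4 lower (0.0202%). A gene was called at a Benjamini-Hochberg adjusted p under 0.05, and this test and adjustment hold for every adjusted p below. Libraries with the same replicate number deviated together from their group means. With the replicate number as a block in the fit, 111 genes were called higher (0.560%) and 22 lower (0.111%), and 32 of the 33 genes called without the block were among them. Of the 111 raised genes, 49 rose at least 2-fold, and 3 of the 22 lowered genes fell at least 2-fold. In this text, rose, fell, raised and lowered refer to the test with the block, and the adjusted p without it is given for the genes described in full. All 133 genes called with the block had the same sign in 3 of 3 pairs of IAA and mock libraries with the same number. The blocked fit selects genes on the differences within these same pairs, so this agreement is no separate support.

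The number of calls depended on single libraries. Of the 133 calls, 20 were kept when any 1 of the 6 libraries was left out of the blocked fit, 19 of them higher and 1 lower. Calls kept of the 111 raised and 22 lowered genes were 25 and 3 without IAA replicate 1, 78 and 10 without IAA replicate 2, and 21 and 2 without IAA replicate 3. Without mock replicate 1 they were 23 and 6, without mock replicate 2 they were 50 and 5, and without mock replicate 3 they were 23 and 2. The sign of all 133 stayed the same in these fits, which share most libraries with the fit that selected the genes.

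**Figure D1:**
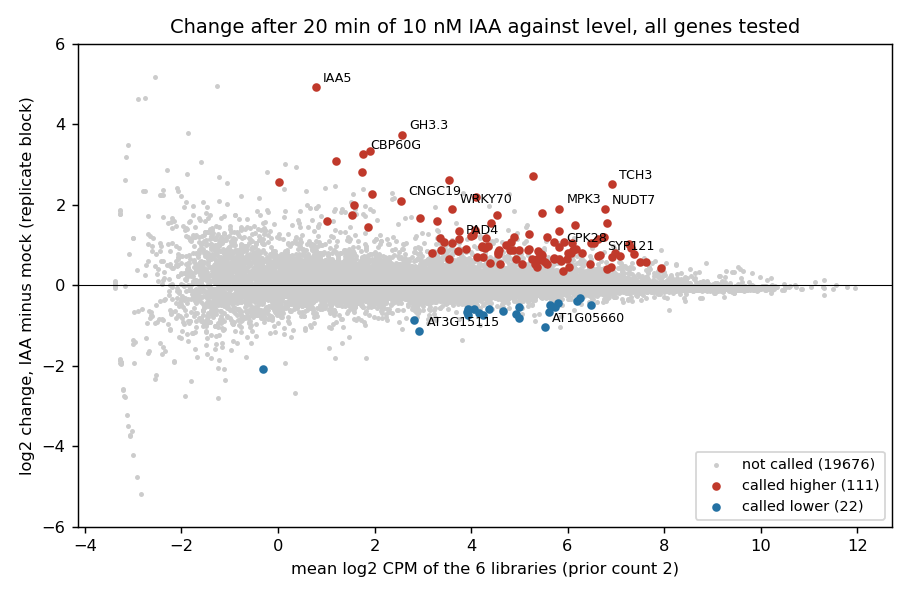
Log2 change with the replicate block (vertical axis) against the mean log2 CPM of the 6 IAA and mock libraries (horizontal axis) for every gene tested, with called genes in colour. Of the genes called, 111 lie above 0 and 22 below, and the changes of the lowered genes are smaller than those of the most strongly raised ones.

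The classical auxin families accounted for 12 of the 111 raised genes: 5 of 22 listed Aux/IAA genes tested, 4 of 6 GH3 and DAO genes, 2 of 42 SAUR genes and ATAUX2-11 (AT5G43700), an Aux/IAA gene that the list, built from gene symbols, left out. The remaining 99 belonged to none of these families, and 21 of the 111 were in the lists of kinases, calcium genes, defence genes and stress-related transcription factors. Calls in these lists are read against the 0.560% of all tested genes that rose. Levels per library are given as CPM, reads of a gene scaled to the TMM-adjusted library total, and replicates are given in the order 1, 2, 3.

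MPK3 (AT3G45640), a MAPK activated in immune and wound signalling, had the smallest p of all genes without the block. Its level was 123, 92.6 and 116 CPM in IAA and 25.2, 36.5 and 27.7 CPM in mock. Each IAA library lay far above each mock library. The log2 change was 1.89 ± 0.17 (SE derived from the fit of all libraries, n = 3 per group, adjusted p = 4.26e-05), and 1.91 ± 0.18 with the block (adjusted p = 6.28e-04). With PEO-IAA the gene stood at 30.2, 36.5 and 28.4 CPM, within the mock range.

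Of 36 tested MAPK cascade genes, 2 rose and none fell, and the list's median log2 change was 0.07 against 0.00 over all genes. The other was MPK17 (AT2G01450), a MAPK of another group, at 275, 281 and 296 CPM in IAA and 195, 227 and 209.6 CPM in mock. Its log2 change was 0.43 ± 0.07 with the block (adjusted p = 0.0169, and 0.143 without it), and the call was kept only without IAA replicate 2. A wider list of protein kinases, collected from product names after values had been seen, had 721 tested members, of which 12 rose, 1 fell and the median was 0.03. PID (AT2G34650), a kinase that phosphorylates PIN auxin carriers, showed the largest rise among them, with 45.6, 32.5 and 33.2 CPM in IAA against 9.59, 6.88 and 7.69 CPM in mock. Its log2 change was 2.20 ± 0.43 with the block (adjusted p = 0.0414), which was not kept when any single library was left out. NAK (AT5G02290), S6K2 (AT3G08720) and PERK9 (AT1G68690), the last a proline-rich extensin-like receptor kinase, rose by 0.65, 0.65 and 0.58 on the log2 scale, and for PERK9 the IAA and mock ranges overlapped. These 3 calls were kept without IAA replicate 2 or mock replicate 2 and lost without any of the other 4 libraries.

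None of 26 tested receptor-like kinases of pattern recognition and none of 14 cysteine-rich receptor-like kinases passed the edgeR test with the block. An unadjusted p under 0.05 was reached by 10 and 4 of them, all higher, against 1029 higher and 554 lower of all 19809 tested genes. DESeq2 with the block called 1 and 0, against 226 higher and 65 lower over all genes. The list medians were 0.17 and 0.25 on the log2 scale. BAK1 (AT4G33430), the coreceptor of many of these kinases, had a log2 change of 0.22 ± 0.06 with the block (adjusted p = 0.174), with 128, 136 and 127 CPM in IAA and 109, 119 and 108 CPM in mock. These ranges did not overlap, but 4.28% of all tested genes had IAA above mock in every library.

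**Figure D2:**
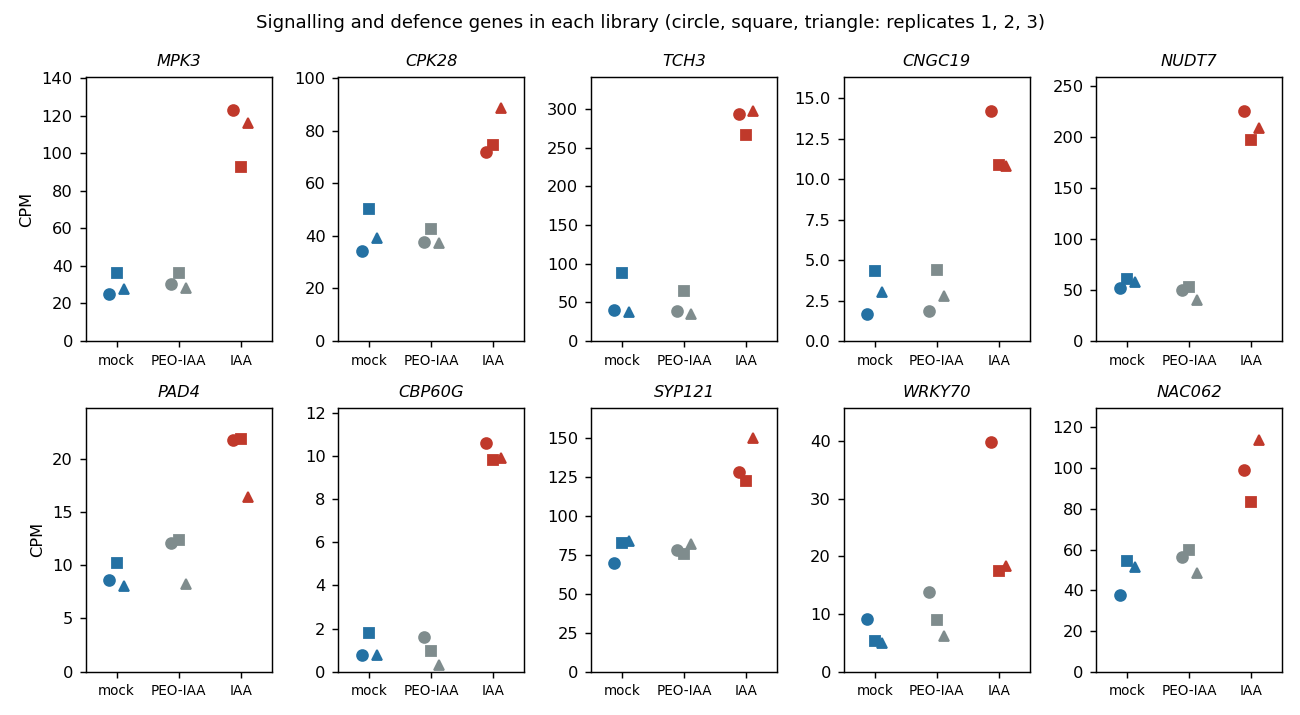
CPM in each of the 3 mock, 3 PEO-IAA and 3 IAA libraries for 10 signalling and defence genes (linear axes from 0, one panel per gene, symbols for the replicate number). In every panel the 3 IAA libraries lie above the 3 mock libraries, from MPK3 at 92.6 CPM or more against 36.5 CPM or less to CBP60G at 9.83 CPM or more against 1.78 CPM or less. All 10 were called on these same libraries, and their selection favours this separation. It held for 104 of the 111 raised genes, against 4.28% of all tested genes.

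Of the 50 tested calcium-dependent and CBL-interacting protein kinases, 3 rose and none fell, with a list median of 0.02. CPK28 (AT5G66210), which limits immune signalling by promoting turnover of the kinase BIK1, was at 71.8, 74.7 and 88.5 CPM in IAA and 34.1, 50.0 and 39.2 CPM in mock. The ranges did not overlap. The log2 change of CPK28 was 0.93 ± 0.13 (adjusted p = 0.00379), and 0.94 ± 0.11 with the block (adjusted p = 0.00259), kept without any 1 library. CPK32 (AT3G57530) stood at 84.0, 95.5 and 101 CPM against 39.3, 60.6 and 55.1 CPM, a log2 change of 0.87 ± 0.13 with the block (adjusted p = 0.00887, and 0.0444 without it). CPK4 (AT4G09570), a calcium-dependent kinase studied in abscisic acid signalling, rose by 0.61 ± 0.12 (adjusted p = 0.0481, and 0.326 without the block). The call for CPK4 was lost whichever of the 6 libraries was left out, and that for CPK32 without IAA replicate 1, IAA replicate 3, mock replicate 1 or mock replicate 3.

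TCH3 (AT2G41100), a calmodulin-like protein first found as a touch-induced gene, was among the most strongly changed abundant genes. It was at 293, 266 and 297 CPM in IAA, at 39.4, 88.3 and 37.5 CPM in mock and at 38.9, 64.8 and 34.5 CPM with PEO-IAA. The IAA libraries were close to each other, and in both other groups replicate 2 was the highest. The log2 change was 2.51 ± 0.26 with the block (adjusted p = 0.00105, kept without any 1 library) and 2.37 ± 0.55 without it (adjusted p = 0.122). TCH3 was the 1 called gene of 21 tested calmodulins and calmodulin-like genes, whose median was 0.13. In a wider list of EF-hand proteins from product names, chosen after values had been seen, 3 of 99 rose and none fell. The other 2 were AT5G39670, with up to 11.6 CPM in IAA and up to 3.57 CPM in mock and no overlap, and AT2G41090, whose locus number is next to that of TCH3, at up to 3.75 CPM in IAA and 0.866 to 1.46 CPM in mock. Reads shared between AT2G41090 and TCH3 may have been split by the authors' quantification, so the smaller value is uncertain. The call for AT5G39670 was lost without IAA replicate 1, IAA replicate 3, mock replicate 1 or mock replicate 3, and that for AT2G41090 whichever library was left out.

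Among 51 tested calcium channels, pumps and annexins, 3 rose, none fell and the median was 0.13. CNGC19 (AT3G17690), a plasma membrane calcium channel required for the response to herbivory, was at 14.2, 10.9 and 10.8 CPM in IAA and at 1.65, 4.33 and 3.03 CPM in mock. Every IAA library was above every mock library. CNGC19 rose 4.29-fold with the block (adjusted p = 0.0108), and its log2 change was 2.00 ± 0.59 without it (adjusted p = 0.399). CNGC1 (AT5G53130), of the same channel family, rose by 0.87 ± 0.16 (adjusted p = 0.0311 with the block and 0.122 without it), and ACA1 (AT1G27770), a calcium-pumping ATPase inhibited by its own N terminus, by 0.71 ± 0.14 (adjusted p = 0.0427 and 0.547). The calls for both channels were lost without IAA replicate 1, IAA replicate 3, mock replicate 1 or mock replicate 3, and ACA1 was kept only without IAA replicate 2. AT4G34150, annotated as a protein with a calcium-dependent lipid-binding domain and a member of no list, was at 161, 147 and 184 CPM against 55.9, 78.5 and 79.1 CPM. It was called in both fits, with an adjusted p of 0.00308 without the block and a log2 change of 1.21 ± 0.16 with it (adjusted p = 0.00410), and the blocked call was lost only without IAA replicate 3.

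The defence signalling genes held more raised members than any other pathway list. Of 42 tested genes, 8 rose and none fell, 38 had a log2 change above 0, as had 9651 of all 19809 tested genes, and the median was 0.53. IAA was above mock in every library for 18 of the 42, against 4.28% of all tested genes. The median was 0.68 in pair 1, 0.25 in pair 2 and 0.67 in pair 3. The list was drawn up with earlier results of these data known, so its direction is a description.

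NUDT7 (AT4G12720), a Nudix hydrolase that restrains EDS1-dependent immunity, was at 226, 197 and 209 CPM in IAA and at 51.7, 61.2 and 57.7 CPM in mock. The groups were far apart and tight. The log2 change was 1.89 ± 0.24 (adjusted p = 0.00308) without the block and 1.89 ± 0.23 with it (adjusted p = 0.00293), kept without any 1 library. PAD4 (AT3G52430), the lipase-like partner of EDS1, was at 21.7, 21.8 and 16.4 CPM against 8.62, 10.2 and 8.01 CPM. The log2 change of PAD4 was 1.15 ± 0.14 with the block (adjusted p = 0.00312, kept without any 1 library) and 1.15 ± 0.23 without it (adjusted p = 0.0519). EDS1 (AT3G48090) itself was at 35.9, 41.6 and 38.0 CPM against 19.6, 32.0 and 29.2 CPM, with a log2 change of 0.55 ± 0.13 that was not called (adjusted p = 0.087 with the block).

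CBP60G (AT5G26920), a calmodulin-binding factor that switches on salicylic acid synthesis, had the largest change of the defence list. It was at 10.6, 9.83 and 9.91 CPM in IAA and at 0.775, 1.78 and 0.758 CPM in mock. The IAA values were nearly equal, and all mock values were low. The log2 change was 3.25 ± 0.49 with the block (adjusted p = 0.00994, and 0.0519 without it). The call was lost without IAA replicate 1, IAA replicate 3, mock replicate 1 or mock replicate 3. NPR1 (AT1G64280), the salicylic acid coactivator, rose by 0.52 ± 0.09 on the log2 scale with the block (adjusted p = 0.0209), from 33.9 to 45.1 CPM in mock to 50.8 to 61.5 CPM in IAA. SR1 (AT2G22300), also known as CAMTA3, a calmodulin-binding repressor of defence genes, rose by 0.65 ± 0.11 (adjusted p = 0.0221). BON1 (AT5G61900), a calcium-dependent phospholipid-binding copine that represses an immune receptor gene, rose by 0.76 ± 0.13 (adjusted p = 0.0169). These 3 calls were kept only without IAA replicate 2. The list thus held raised activators (PAD4, CBP60G, NPR1) and raised repressors (NUDT7, SR1, BON1) of immunity.

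The other 2 members were the plasma membrane syntaxins SYP121 and SYP122, which drive secretion and act at sites of attempted fungal entry. SYP121 (AT3G11820) was at 128, 122 and 149.7 CPM in IAA and at 69.8, 82.3 and 84.1 CPM in mock, with no overlap. SYP121 had a log2 change of 0.76 ± 0.13 (adjusted p = 0.0201) without the block and 0.76 ± 0.09 with it (adjusted p = 0.00205), kept without any 1 library. SYP122 (AT3G52400) rose by 0.81 ± 0.16 with the block (adjusted p = 0.0459), which was lost whichever library was left out. Of 54 syntaxins and exocyst subunits by product name, a list chosen after values had been seen, these 2 rose, none fell and the median was 0.01.

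Intracellular immune receptors of the TIR and NB-LRR classes, again collected by product name after values had been seen, had 126 tested members. Of these 5 rose and none fell, 100 had a log2 change above 0, and the median was 0.26. AT3G44630, a TIR-NBS-LRR gene, was at 15.3, 19.0 and 16.4 CPM in IAA and 4.36, 8.46 and 4.76 CPM in mock, a log2 change of 1.60 ± 0.22 with the block (adjusted p = 0.00478, and 0.0688 without it). The TIR-domain genes AT1G72900 and AT2G20142 rose by 1.67 ± 0.30 and 1.76 ± 0.35. The call for AT3G44630 was lost without IAA replicate 1, IAA replicate 3, mock replicate 1 or mock replicate 3. AT1G72900 was kept only without mock replicate 2, and AT2G20142 only without IAA replicate 2. Such genes form large families of similar copies, so reads may be divided among relatives.

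Among 55 tested WRKY transcription factors, 2 rose, none fell and the median was 0.19. WRKY70 (AT3G56400), which favours salicylic acid over jasmonate responses, was at 39.8, 17.4 and 18.3 CPM in IAA and at 9.15, 5.40 and 4.98 CPM in mock. Replicate 1 was the highest in both groups, and the groups did not overlap. The log2 change was 1.91 ± 0.16 with the block (adjusted p = 4.43e-04, kept without any 1 library) and 1.95 ± 0.50 without it (adjusted p = 0.211). With PEO-IAA WRKY70 was at 13.9, 8.97 and 6.12 CPM. WRKY18 (AT4G31800) rose by 1.37 ± 0.27 (adjusted p = 0.0396 with the block and 0.208 without it), kept only without mock replicate 2.

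Of 34 stress-responsive ERF, ZAT and NAC factors and relatives tested, 2 rose, none fell, 30 had a log2 change above 0 and the median was 0.62. NAC062 (AT3G49530), released from membranes under cold and other stress, was at 99.2, 83.5 and 114 CPM against 37.9, 54.3 and 51.6 CPM. It was called without the block (1.05 ± 0.15, adjusted p = 0.00487) and with it (1.05 ± 0.14, adjusted p = 0.00410), and the blocked call was lost only without IAA replicate 3. CZF1 (AT2G40140), a zinc finger protein, was at 165, 137 and 146 CPM in IAA and at 57.3, 84.9 and 58.7 CPM in mock. Its call with the block (1.15 ± 0.23, adjusted p = 0.0495) was lost whichever library was left out, and PEO-IAA replicate 1 stood at 169 CPM, above all IAA libraries. TIP (AT5G24590), a NAC factor named for its binding to a viral coat protein and a member of no list, was at 91.0, 92.8 and 134 CPM against 52.4, 66.4 and 60.7 CPM. The log2 change of TIP was 0.82 ± 0.13 (adjusted p = 0.0142) without the block and 0.81 ± 0.11 with it (adjusted p = 0.00410), lost without mock replicate 1 or mock replicate 3.

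Touch, wounding and jasmonate genes had a list median of 0.58, but only TCH3 of 28 tested rose, and the pairs differed, with medians of 0.33, 0.14 and 0.98. In the stress factor list the pair medians were 0.44, 0.17 and 1.23, also highest in pair 3. TCH4 (AT5G57560), a touch-induced xyloglucan endotransglucosylase, was at 29.3, 29.3 and 34.9 CPM in IAA and at 6.58, 10.4 and 3.90 CPM in mock, a log2 change of 2.30 ± 0.58 with the block that was not called (adjusted p = 0.131). In PEO-IAA replicate 1 TCH4 reached 41.3 CPM, while PEO-IAA replicates 2 and 3 were at 9.11 and 4.01 CPM. WRKY40 (AT1G80840) showed the same library standing apart, at 72.1 CPM in PEO-IAA replicate 1 against 21.6 and 25.5 CPM in the others, and at 59.9, 33.8 and 95.9 CPM in IAA. CML37 (AT5G42380) was at 10.8 CPM in PEO-IAA replicate 1 and at 1.95 and 1.74 CPM in the others. In this library the mean log2 CPM of the stress factor list was 4.07, level with the highest IAA library (4.02) and above the highest mock library (3.22). The mean of the touch, wounding and jasmonate list did not stand apart there, at 3.36 against 3.18 and 3.28 with PEO-IAA in replicates 2 and 3. For that list mock ranged from 2.44 to 3.39 and IAA from 3.02 to 4.56. The part of handling or wounding in these values was not tested.

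**Figure D3:**
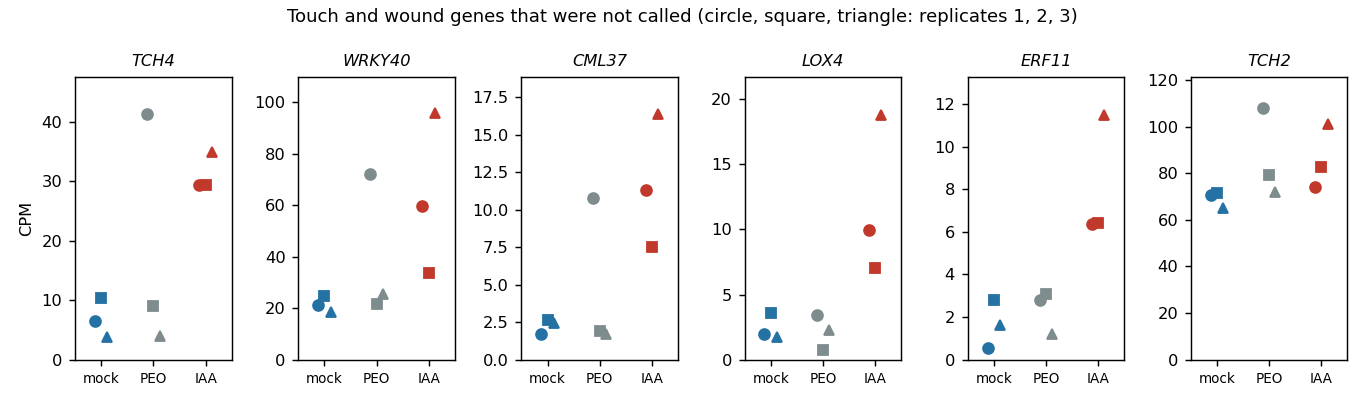
CPM in each mock, PEO-IAA (PEO) and IAA library for 6 touch, wound and stress genes that were not called (linear axes from 0, symbols for the replicate number). For TCH4, WRKY40 and CML37 the circle of PEO-IAA replicate 1 lies well above the other PEO-IAA libraries, at 41.3, 72.1 and 10.8 CPM.

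**Figure D4:**
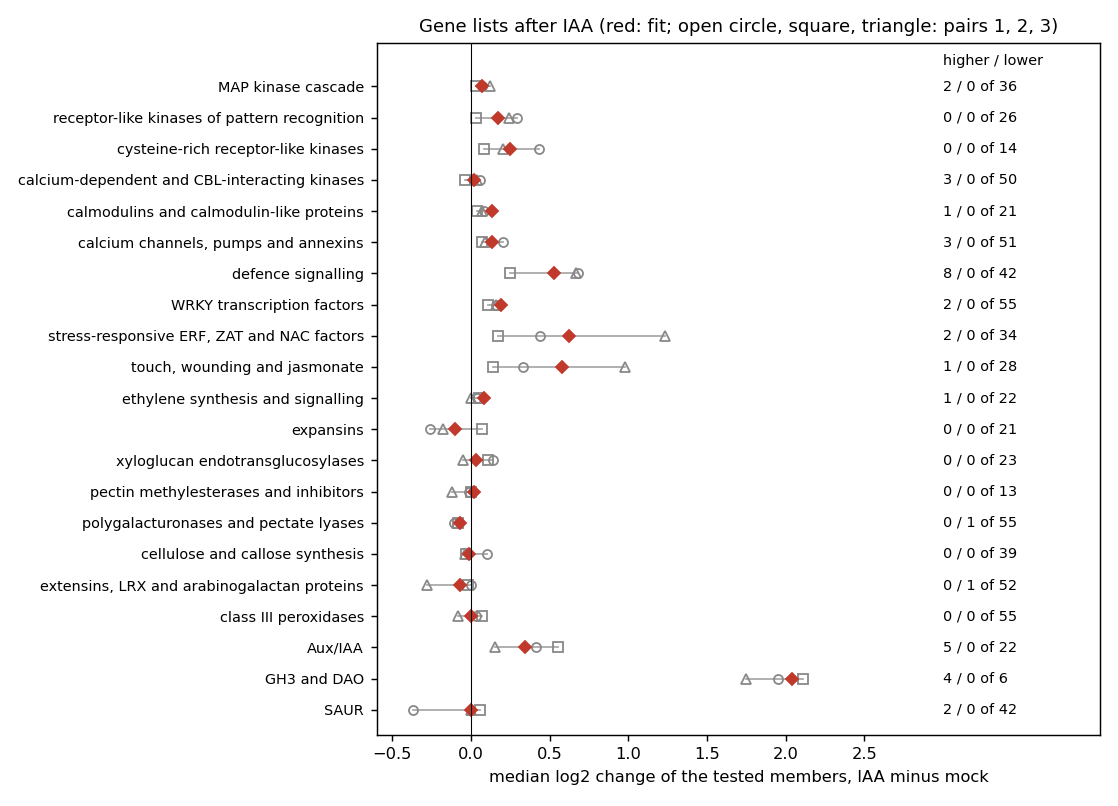
Median log2 change of the tested members of 21 gene lists without the block (red) and in each pair of libraries (open symbols), with the number of members called higher and lower with the block at the right. The defence list has 8 called of 42 and a median of 0.53, while the medians of the 7 cell wall lists from expansins to peroxidases lie between -0.10 and 0.03.

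Genes of the cell wall showed few calls. Of 21 tested expansins, which loosen walls, 23 xyloglucan endotransglucosylases, 13 pectin methylesterases and inhibitors, 39 cellulose and callose synthesis genes and 55 class III peroxidases, none was called by edgeR with the block. At an unadjusted p under 0.05 the number higher and lower was 2 and 6 for expansins, 3 and 2 for xyloglucan endotransglucosylases, 1 and 0 for pectin methylesterases, 1 and 1 for cellulose and callose genes and 3 and 2 for peroxidases. DESeq2 with the block called 1 higher and 1 lower expansin, 1 higher cellulose or callose gene, and none of the other 3 lists. Over all 19809 tested genes the numbers higher and lower were 1029 and 554 by unadjusted p, and 226 and 65 by DESeq2. EXPB1 (AT2G20750), a beta-expansin, came closest, at 29.9, 26.4 and 22.0 CPM in IAA against 44.5, 43.5 and 40.7 CPM in mock, a log2 change of -0.72 ± 0.15 (adjusted p = 0.0526 with the block and 0.127 without it). EXPA17 (AT4G01630), an alpha-expansin, was at 46.3, 42.3 and 32.4 CPM against 85.4, 72.5 and 91.8 CPM, also without overlap and not called (adjusted p = 0.209). XTH18 (AT4G30280) and XTH19 (AT4G30290), similar neighbouring genes whose reads may be shared, had log2 changes of 0.69 ± 0.22 and 0.86 ± 0.35 (adjusted p = 0.271 and 0.509).

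In the list of 55 polygalacturonases and pectate lyases, which cut pectin, 1 gene fell and none rose, and in that of 52 extensins, LRX and arabinogalactan proteins 1 fell and none rose. Both medians were -0.07. An unadjusted p under 0.05 was reached by 2 genes with a higher and 10 with a lower level in each list. The numbers were 1029 and 554 among all 19809 tested genes. DESeq2 with the block called none higher in either list and 4 and 2 lower, against 226 higher and 65 lower among all genes. AT1G05660, a pectin lyase-like gene, was at 30.7, 31.8 and 34.4 CPM in IAA and at 49.9, 62.9 and 90.0 CPM in mock. The IAA libraries were nearly equal, the mock libraries spread widely, and the groups did not overlap. Its log2 change was -1.06 ± 0.19 (adjusted p = 0.0256) without the block and -1.04 ± 0.15 with it (adjusted p = 0.00663), lost without IAA replicate 1, IAA replicate 3, mock replicate 2 or mock replicate 3. The neighbouring AT1G05650, of the same family and thus open to sharing of reads, was at 6.72 to 11.3 CPM against 17.8 to 29.6 CPM and was not called (adjusted p = 0.107 with the block). AGP7 (AT5G65390), an arabinogalactan protein, had a log2 change of -0.50 ± 0.09 with the block (adjusted p = 0.0305, and 0.998 without it), its groups overlapped, and the call was lost whichever library was left out.

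Of called genes that belong to no wall list, chosen here after their values were seen, 2 of the lowered ones encode enzymes of wall polymers. F8H (AT5G22940), annotated as a glucuronoxylan glucuronosyltransferase, was at 36.2 to 52.2 CPM in IAA and 53.6 to 70.5 CPM in mock, a log2 change of -0.48 ± 0.08 (adjusted p = 0.0217 with the block). TBL27 (AT1G70230), which acetylates xyloglucan, was at 10.9 to 16.2 CPM against 16.7 to 23.8 CPM, a log2 change of -0.59 ± 0.11 (adjusted p = 0.0305). The F8H call was lost whichever library was left out, and that for TBL27 was kept only without IAA replicate 2. PGSIP7 (AT2G35710), a glycosyltransferase-like protein, rose from 25.4 to 28.5 CPM in mock to 47.4 to 53.6 CPM in IAA, by 0.91 ± 0.12 on the log2 scale (adjusted p = 0.00478), lost without IAA replicate 3, mock replicate 1 or mock replicate 3.

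**Figure D5:**
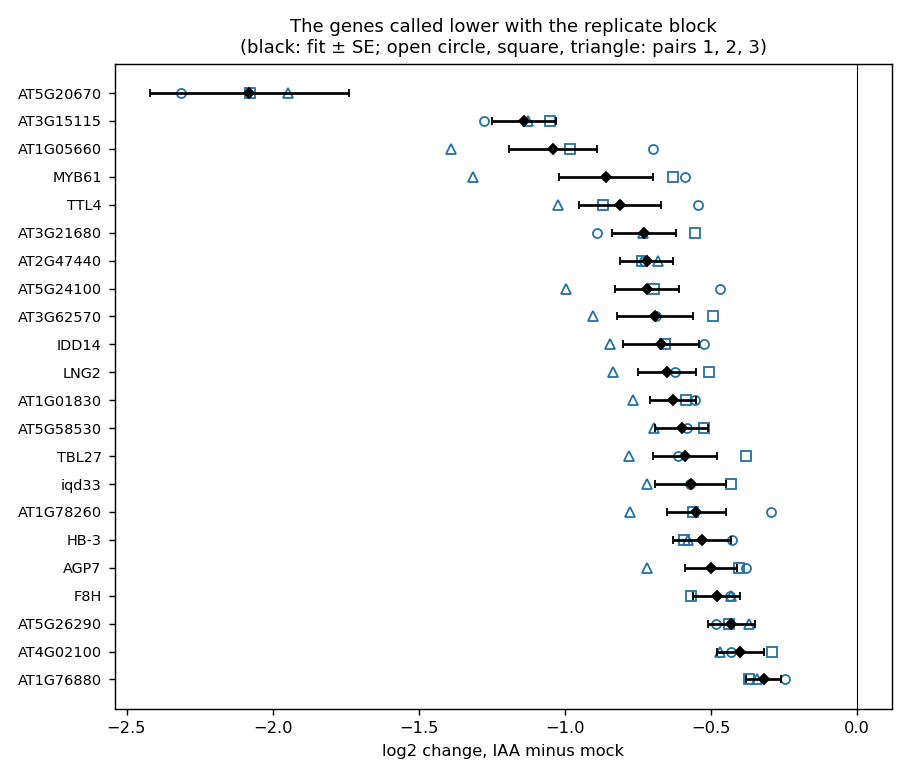
Log2 change of the 22 genes called lower, from the fit with the block (black, with SE) and in each pair of IAA and mock libraries (open symbols). All pairs of all 22 genes lie below 0, which their selection in these same pairs favours. AT3G15115, at -1.14, is the only one kept without any 1 library.

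The genes that fell at least 2-fold were AT5G20670, AT3G15115 and AT1G05660. AT5G20670 was low throughout, at 0.243 to 0.463 CPM in IAA and 1.21 to 1.79 CPM in mock, and its call was lost whichever library was left out. Of the 22, 19 had every IAA library below every mock library, against 2.99% of all tested genes. The 22 were called on these same libraries, so the difference in share follows from the selection. AT3G15115, annotated as a serine/arginine repetitive matrix protein, was at 3.98, 4.85 and 6.67 CPM in IAA, at 9.63, 10.0 and 14.6 CPM in mock and at 15.0, 13.5 and 18.5 CPM with PEO-IAA. IAA was lowest in every replicate number and PEO-IAA highest. The log2 change from mock was -1.14 ± 0.18 (adjusted p = 0.0155) without the block and -1.14 ± 0.11 with it (adjusted p = 6.85e-04).

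Tetratricopeptide repeat proteins, which use this repeat to bind partner proteins, held 4 of the 22, out of 288 tested members of a list collected by product name after values had been seen, against the 0.111% of all tested genes that fell. None of the 288 rose by edgeR. The unadjusted p was under 0.05 for 5 with a higher and 6 with a lower level, and DESeq2 with the block called none higher and 4 lower. Among all 19809 tested genes these numbers were 1029 and 554 by unadjusted p, and 226 and 65 by DESeq2. AT2G47440 was at 25.9, 23.2 and 22.5 CPM in IAA and 43.0, 38.7 and 36.1 CPM in mock, a log2 change of -0.72 ± 0.14 (adjusted p = 0.0444) without the block and -0.72 ± 0.09 with it (adjusted p = 0.00410), lost only without IAA replicate 1. TTL4 (AT3G58620) was at 28.8, 23.9 and 19.8 CPM against 42.1, 43.7 and 40.2 CPM, a log2 change of -0.81 ± 0.14 with the block (adjusted p = 0.0200). AT3G62570 and AT4G02100, the last a DnaJ protein, fell by 0.69 and 0.40 on the log2 scale. The TTL4 call was lost whichever library was left out, and those of AT3G62570 and AT4G02100 were kept only without IAA replicate 2.

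Transcription factors and growth genes were also among the lowered ones. MYB61 (AT1G09540), a MYB factor of carbon allocation and wall formation, was at 5.24, 4.94 and 5.33 CPM in IAA and 7.89, 7.64 and 13.3 CPM in mock, a log2 change of -0.86 ± 0.16 with the block (adjusted p = 0.0296), kept only without mock replicate 1. LNG2 (AT3G02170), which promotes lengthwise cell growth, was at 38.9, 45.4 and 32.9 CPM against 59.9, 64.5 and 58.8 CPM. The log2 change of LNG2 was -0.65 ± 0.10 with the block (adjusted p = 0.0108), kept only without IAA replicate 2. IDD14 (AT1G68130), a zinc finger factor, and HB-3 (AT5G15150), a homeodomain factor, fell by 0.67 and 0.53 on the log2 scale, and both calls were lost whichever library was left out.

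AT5G24100, a leucine-rich repeat kinase, was the only one of the 721 kinases that fell, with 18.4, 11.8 and 14.8 CPM in IAA and 25.4, 19.1 and 29.6 CPM in mock. The log2 change was -0.72 ± 0.11 with the block (adjusted p = 0.0112), lost without IAA replicate 2, IAA replicate 3 or mock replicate 3. AT5G58530, a glutaredoxin-family gene, was at 12.8, 12.2 and 11.9 CPM against 19.1, 17.5 and 19.2 CPM and was called in both fits (adjusted p = 0.0365 without the block and 0.00712 with it), the blocked call being lost without IAA replicate 1, IAA replicate 3, mock replicate 1 or mock replicate 3. AT1G01830, an ARM repeat protein, fell by 0.63 ± 0.08 (adjusted p = 0.00478 with the block), lost without IAA replicate 3 or mock replicate 3. IQD33 (labelled iqd33, AT5G35670), of a calmodulin-binding family, fell by 0.57 with overlapping groups, and its call was lost whichever library was left out.

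Raised genes outside all lists that kept their call without any 1 library included 2 sugar carriers, chosen here after their values were seen. ERD6 (AT1G08930), a sugar transporter first found as a dehydration-induced gene, was at 212, 226 and 224 CPM in IAA and at 107, 134 and 107 CPM in mock. SUT2 (AT2G02860), a sucrose transporter, was at 64.8, 66.5 and 67.4 CPM against 35.2, 47.9 and 43.8 CPM. Their log2 changes with the block were 0.94 ± 0.11 and 0.66 ± 0.08 (adjusted p = 0.00205 and 0.00312), and IAA was above mock in every library for both. AT2G21120, annotated as a putative magnesium transporter, rose by 0.69 ± 0.07 (adjusted p = 0.00122).

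GILP (AT5G13190), a plasma membrane protein that restrains cell death, was at 84.6, 83.8 and 105 CPM against 29.9, 34.4 and 42.7 CPM. It was called in both fits, with a log2 change of 1.36 ± 0.18 with the block (adjusted p = 0.00478, lost without IAA replicate 3 or mock replicate 1). ACS11 (AT4G08040), an enzyme that makes the ethylene precursor, was the 1 raised gene of 22 tested ethylene genes, at 22.3, 32.5 and 22.3 CPM in IAA, 10.4, 13.5 and 8.50 CPM in mock and 3.07, 6.43 and 4.85 CPM with PEO-IAA. The change of ACS11 was 1.25 ± 0.21 on the log2 scale with the block (adjusted p = 0.0165, and 0.161 without it), lost whichever library was left out. The 1 gene called without the block but not with it, AT1G59312, had 3, 7 and 4 reads in the IAA libraries and none in mock, at least 4.26-fold higher against a floor of 3 reads over the 3 mock libraries. It was not called with the block (adjusted p = 0.0880), and PEO-IAA had 0.158 to 0.247 CPM, as in IAA.

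PEO-IAA and mock were compared for the same genes. Over all genes, none was called higher with PEO-IAA than mock (0.00%) by edgeR without the block, 152 were higher at an unadjusted p under 0.05, and 7 were called lower (0.0353%). The log2 change of PEO-IAA from mock was 0.09 for MPK3, -0.25 for NUDT7, -0.07 for CPK28, -0.01 for SYP121, -0.26 for TCH3, -0.19 for CBP60G and 0.01 for CNGC19, all with an adjusted p of 1.00. For classical auxin genes it was -3.00 for IAA1 (AT4G14560, adjusted p = 1.80e-04) and -2.15 for IAA2 (AT3G23030, adjusted p = 2.78e-05). Outside these families it was -2.02 for AUF1 (AT1G78100, an F-box gene, adjusted p = 0.0114) and -1.88 for AT3G42800 (adjusted p = 9.50e-05). These were the 4 of the 111 raised genes that were called with PEO-IAA against mock. The change was -1.38 for PID and -1.17 for ACS11, which were not called. PEO-IAA was set against mock only without the block. In that fit IAA was not called against mock either for TCH3, CBP60G and CNGC19 (adjusted p = 0.122, 0.0519 and 0.399). PEO-IAA and IAA are each set against the same mock libraries. The difference between them was tested in the fit with the block, in which 234 genes were called higher in IAA than with PEO-IAA (1.18%) and 107 lower (0.540%). This test reuses the IAA libraries on which the genes named here were called against mock, so it is no separate support. In this comparison the log2 change was 1.81 for MPK3 (adjusted p = 1.89e-04), 2.15 for NUDT7 (adjusted p = 4.41e-04), 2.73 for TCH3 (adjusted p = 1.89e-04) and 1.00 for CPK28 (adjusted p = 6.19e-04). It was -1.61 for AT3G15115 (adjusted p = 1.28e-05) and -1.20 for AT1G05660 (adjusted p = 0.00105).

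Levels per transcript length put NUDT7 and TCH3 close together in mock and the channel and the salicylic acid regulator far below. The mean TPM in mock was 49.6 for NUDT7, 50.1 for TCH3, 47.1 for SYP121, 24.2 for MPK3, 1.51 for CNGC19 and 0.521 for CBP60G, and in IAA it was 202 for NUDT7, 268 for TCH3, 83.9 for SYP121, 93.8 for MPK3, 6.18 for CNGC19 and 4.91 for CBP60G.

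The motifs capitalized in the sequences above were counted in the same 250-base window of all genes. A W box (TTGACC or TTGACT, either strand) lay in 43 of the 99 raised genes outside the auxin families, in 4 of the 12 auxin family genes and in 5 of the 22 lowered genes, against 28.7% of tested genes and 28.4% of all genes. A CAMTA match (ACGCGT or CCGCGT) lay in 11 of the 99, in 1 of the 12 and in 0 of the 22, against 3.82% of tested and 3.45% of all genes. TGTCTC lay in 7 of the 12 auxin family genes, 7 of the 99 and 1 of the 22, against 10.7% of tested and 11.1% of all genes. TGTCGG lay in 3 of the 12, 8 of the 99 and 1 of the 22, against 4.7% and 4.25%. GCCGCC lay in 1 of the 12, 5 of the 99 and 0 of the 22, against 1.95% of tested and 1.88% of all genes. CACGTG lay in 2 of the 12, 5 of the 99 and 0 of the 22, against 7.41% and 6.6%. These counts describe letters in a short window, and binding was not measured.

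The 6 libraries held 18.75 to 22.18 M estimated reads (M). Marker lists were used to check the tissue. Root hair, epidermis, endodermis, xylem, phloem, root cap, stem cell niche and cell division markers that matched a gene were all tested and had reads. None was called by edgeR or by DESeq2 with the block. An unadjusted p under 0.05 was reached by 2, against 1029 higher and 554 lower of all 19809 tested genes. Their median changes lay between -0.16 and 0.11. Of 9 green tissue markers, 6 were tested and 1 had no reads in the 6 libraries. None of them was called, and 1 was higher at an unadjusted p under 0.05. The mean log2 CPM of xylem markers was 3.82 in IAA replicate 1 and 3.59 in mock replicate 1, and 4.90 to 5.09 in the other 4 libraries, so this difference followed the replicate number rather than the treatment. In whole root tips fewer cells of a type and less RNA per cell cannot be told apart.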

How the data were processed

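RNA was sequenced in all libraries. As deposited by the authors, each file lists an expected count of reads, a TPM value and effective length of each transcript. Per the submitters' processing notes the tool was Salmon 1.3.0 and the build TAIR10. The strand setting is not given in the sources used, so overlapping and antisense genes are uncertain, as are close paralogs among which Salmon divides reads. Expected counts were summed over the transcripts of a locus (48268 transcripts, 27586 loci) and rounded. All 21 libraries entered 1 edgeR 4.0.16 quasi-likelihood fit in R 4.3.3, with TMM scaling, 1 coefficient for each group and filterByExpr as the filter on low counts. The second fit added the replicate number within each experiment as a block. CPM used TMM-scaled totals, and the deposited TPM were averaged as given. A change is a fold on the log2 scale. The p-values rest on the spread between libraries within groups, pooled over all 7 groups (14 residual degrees of freedom, 8 with the block). Each SE is the absolute log2 change divided by the square root of the test's F value, so it rests on the same pooled spread. Counting error also depends on the reads per library, 18.75 to 22.18 M in the IAA and mock libraries and 17.45 to 23.88 M over all 21.

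The replicate numbers were taken to pair the libraries because deviations from the group means correlated at 0.78, 0.63 and 0.53 for the IAA and mock libraries numbered 1, 2 and 3, and at 0.52 to 0.75 for the pairs with PEO-IAA. Within the IAA, mock and PEO-IAA groups no library duplicated another, since the mean chi-square per gene between replicates was 21.9 to 47.4. Libraries were not compared in this way across groups or within the heat and estradiol groups. Symbols and products came from RefSeq's TAIR10.1 gene table, which held 27389 of the loci. In building 24 gene lists and 9 marker lists, 21 names found no match and 28 homonyms were left out.

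The naming rule took the 20 raised genes with the smallest p and all lowered ones without the block. It added up to 12 each way with the largest blocked change, no overlap and a mean of at least 5 CPM. It also added up to 3 called members per list with the smallest p. Some genes that met the rule have no description of their own, among them AUF1, HAT2 (AT5G47370), AT1G60010, AT3G42800, AT2G32030 and AT5G60350. The uncharacterized AT5G60350 rose 10.1-fold with the block (adjusted p = 0.0176), above the 9.54-fold of CBP60G. Its call was lost whichever library was left out. Genes outside the rule are named as examples of a count or as chosen after their values were seen. Members and lists were chosen with earlier results of these data known, and the 5 lists by product name after values were seen. Promoter windows of 250 bases upstream were read from TAIR10.1, and bases after the start were not used. Alternatives were DESeq2 1.42.0, fits of fewer libraries, median-of-ratios scaling, no filter, a length offset, robust estimation and leaving out libraries.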

Additional observations from a re-analysis of the deposited data

How the results depend on the processing

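The counts of called genes depended on the fit, while no named gene that was called reversed its direction under any alternative. Against 29 higher and 4 lower in the fit of all libraries without the block, the replicate block, justified by the pairing of the numbers, gave 111 and 22. DESeq2 gave 96 and 20, and 226 and 65 with the block. The chemical treatments alone gave 11 and 0, and 396 and 84 with the block, an alternative chosen after seeing the data. IAA and mock libraries alone gave 11 and 0, and 470 and 98 with the block. The length offset gave 23 and 2. Median-of-ratios scaling, no filter and robust estimation gave 31 to 38 higher and 4 lower. Leaving out 1 library gave 6 to 14 higher and 0 to 2 lower without the block, and 21 to 97 higher (51 without mock replicate 2) and 2 to 21 lower with it. Leaving out a whole replicate number with the block gave 5 to 37 higher and 1 to 6 lower, the fewest without number 3. These fits have fewer libraries, and the cause of the other differences was not tested. The 111 and 22 genes were all called again, in the same direction, in the blocked fits of the 6 and of the 9 libraries, and 110 and 22 by DESeq2 with the block. Genes with a few reads per library are limited by depth.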
